A study of Mus musculus with 29 samples.

Results

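A set of 30 genes of cholesterol synthesis and of the transcription factor SREBP2 were followed across liver and hindlimb muscle. They were chosen by gene symbol from the enzymes of the pathway, the proteins that control SREBP2, and proteins that move sterols. All 30 were found by Ensembl identifier among the 38124 genes of the deposited tables, and all 30 passed the filter on low counts in both tissues. The samples were 29 RNA-seq libraries from 16 mice, all males of the inbred strain C57BL/6, which were bought at 14 weeks of age, fed chow and divided among diets when 4 months old. The control group was given 95% of free intake (13.6 kcal each day). The groups labelled soy, fish and lard were given 60% of it (8.6 kcal each day) and are called restricted here. Liver had 3 control, 4 soy, 4 fish and 4 lard libraries, and hindlimb muscle had 4, 3, 3 and 4. Each library is 1 tissue of 1 mouse, 13 mice gave both tissues, and the labels do not name the fat of the control diet, so restriction and a change of dietary fat cannot be told apart against control.

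Cells make cholesterol from acetyl-CoA through mevalonate, isoprenoid diphosphates, squalene and a series of sterol ring steps, and liver is a main site of it. SREBP2, encoded by Srebf2, switches on nearly all of these enzymes when sterols are low. Scap escorts SREBP2 from the endoplasmic reticulum to the Golgi for cleavage, and Insig1 and Insig2 hold Scap back when sterols are high. Insig1 is itself an SREBP target, whereas a liver transcript of Insig2 is known to be lowered by insulin.

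SREBP2 acts at sterol regulatory elements, usually beside CCAAT boxes bound by NF-Y and GGGCGG boxes bound by Sp1. RefSeq promoter windows (GRCm38.p6, 250 bases before to 50 bases after each start) were matched by symbol for 25 of the 30 genes, in 31 windows. Stard4, Fdps, Sqle, Npc1 and Fdft1 were not matched. The letters TCACNCCAC, searched on both strands like all motifs here, were found in 1 of the 31 windows, that of Hmgcs1, and in 1.24% of all 32851 windows. CCAAT was found in 71.0% of the genes' windows against 37.4% of all, and GGGCGG in 80.6% against 35.7%. A match is a description of letters, not of a bound site. The bases before the start that lie in no GENCODE M21 exon are printed for 4 regions on which the results below turn, in lower case, with TCACNCCAC and CCAAT matches of either strand in capitals. Hmgcs1, the cytosolic HMG-CoA synthase, is shown for its sterol element letters (chr13:119690101-119690350, plus strand). Insig2 (chr1:121332590-121332839, minus strand, the farthest upstream of its 3 starts) and Lbr (chr1:181842402-181842651, minus strand) are shown because they are the genes that passed the test between diets. The region between Mvk and Mmab (chr5:114444061-114444268, plus strand) is shown because the 2 genes run from it in opposite directions.
Hmgcs1: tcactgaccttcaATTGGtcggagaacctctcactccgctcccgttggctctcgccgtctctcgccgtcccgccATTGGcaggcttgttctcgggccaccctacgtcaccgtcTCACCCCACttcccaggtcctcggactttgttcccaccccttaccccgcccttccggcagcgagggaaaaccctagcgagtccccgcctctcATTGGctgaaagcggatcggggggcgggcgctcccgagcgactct
Insig2: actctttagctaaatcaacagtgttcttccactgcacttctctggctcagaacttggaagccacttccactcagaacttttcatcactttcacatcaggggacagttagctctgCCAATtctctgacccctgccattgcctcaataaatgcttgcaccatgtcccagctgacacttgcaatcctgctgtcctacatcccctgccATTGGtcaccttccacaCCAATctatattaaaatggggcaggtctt
Lbr: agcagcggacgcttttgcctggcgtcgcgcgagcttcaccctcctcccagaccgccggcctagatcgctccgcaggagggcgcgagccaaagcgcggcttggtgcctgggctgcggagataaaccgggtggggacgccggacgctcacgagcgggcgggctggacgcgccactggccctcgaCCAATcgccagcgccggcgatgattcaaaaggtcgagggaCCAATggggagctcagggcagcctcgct
Mvk and Mmab: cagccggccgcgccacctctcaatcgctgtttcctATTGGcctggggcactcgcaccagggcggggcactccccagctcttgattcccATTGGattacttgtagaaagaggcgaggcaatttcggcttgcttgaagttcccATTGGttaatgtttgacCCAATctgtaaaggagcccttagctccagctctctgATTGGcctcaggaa
The Hmgcs1 region held 1 TCACNCCAC and 3 CCAAT matches, the Insig2 region 3 CCAAT, the Lbr region 2 and the Mvk and Mmab region 5. Reads of Insig2 pool transcripts from all of its starts.

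Libraries held 11315231 to 27106865 reads on exons. The 6 hepatocyte markers summed to 86881 to 144788 CPM (exon reads per 1e+06 exon reads of the library) in liver and to 158 to 536 CPM in muscle, and the 8 skeletal muscle markers to 166 to 2864 CPM in liver and to 113810 to 233073 CPM in muscle, with 0 of these markers at 0 in any library. The highest muscle sum in a liver, 2864 CPM, was that of fish mouse 1123, against 166 to 347 CPM in the other 14 livers. Lard liver 1130 held 2296 CPM of 7 erythroid markers, against 369 to 954 CPM in the other 14 livers. The part of these 2 livers' marker sums in the results was not tested. Control livers had lower hepatocyte sums (86881 to 101915 CPM) than most restricted livers (100656 to 144788 CPM), and the part of this in the results below was not tested. Soy livers 1073 and 1159 stood apart, with 5.47% and 5.41% of their gene reads outside exons against 7.90% to 8.92% in the other 13 livers, and TMM scaling factors of 0.89 and 0.87 against 0.96 to 1.11. Results that rest on soy livers are also given without them. In bulk tissue, fewer cells of a type and less RNA per cell cannot be told apart. Within a tissue replicates are single mice, so p-values measure the spread between mice of a group. Fits of both tissues counted the 13 mice with both tissues as independent libraries, except where the mouse was a block. A gene passed the test at a Benjamini-Hochberg adjusted p under 0.05 over all genes of the tissue, in edgeR's quasi-likelihood test.

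The 3 restricted diets were compared with control in liver first, as their mean. Insig2 fell and Lbr rose, and the other 28 genes did not pass. These 2 of 30 stand beside 1.08% of all 12788 genes tested. The DESeq2 Wald test called the same 2, beside 2.66% of the genes to which it gave an adjusted p. Without soy livers 1073 and 1159 both passed in edgeR (Insig2 -1.002, adjusted p = 0.0342, and Lbr 0.66, adjusted p = 0.0175). Neither gene passed with the library number of the sample descriptions as a block. Without the filter on low counts Insig2 passed and Lbr did not. Of the 30 differences 27 were above 0, with a median log2 difference of 0.43 against 0.01 over all genes. The 6 genes from acetyl-CoA to mevalonate decarboxylation had a median of 0.63, the 3 isoprenoid diphosphate genes 0.62, the 12 squalene and ring genes 0.48, the 4 SREBP control genes 0.03 and the 4 transport genes 0.17.

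Insig2 (ENSMUSG00000003721, chr1:121304353-121332589 in the deposited tables) was highest in the control livers. They had 205, 107 and 89.0 CPM (mice 1095, 1120 and 1121). The soy livers had 50.2, 34.7, 85.5 and 44.4 CPM, the fish livers 46.2, 92.1, 62.4 and 59.4 CPM, and the lard livers 58.0, 65.4, 52.4 and 66.5 CPM. In 11 of 12 restricted livers Insig2 was below every control liver, and fish mouse 1123 lay just above the lowest control. The means were 134 ± 62.4 CPM (SD, n = 3) in control and 59.7 ± 16.5 CPM (SD, n = 12) in restricted livers. The log2 difference was -1.09 ± 0.22 (SE; edgeR adjusted p = 0.0267). By diet it was -1.17 ± 0.28 for soy, -1.06 ± 0.28 for fish and -1.03 ± 0.28 for lard, none of which passed singly (edgeR adjusted p = 0.0527, 0.16 and 0.131). Reads of the gene outside exons, which come largely from unspliced RNA, were 11.6 ± 6.67 CPM in control (SD, n = 3), 4.82 ± 3.96 in soy, 5.06 ± 2.08 in fish and 7.58 ± 2.05 in lard livers (SD, n = 4 each). These groups overlapped. The soy value was low through mice 1073 and 1159 (1.29 and 1.62 CPM), whose reads outside exons were few over all genes, while mice 1065 and 1141 had 7.25 and 9.11 CPM. Leaving out control liver 1095, the highest, moved the log2 difference to -0.72 (edgeR adjusted p = 0.236), and the call was also lost without control liver 1120 (-1.19, edgeR adjusted p = 0.081) or lard liver 1100 (-1.08, edgeR adjusted p = 0.0538).

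Lbr (ENSMUSG00000004880, chr1:181815316-181842401), the lamin B receptor of the inner nuclear membrane, reduces the same sterol double bond as Tm7sf2. It had 10.9, 8.51 and 7.56 CPM in control livers. Soy livers had 13.6, 11.1, 13.9 and 8.91 CPM, fish livers 15.1, 11.9, 12.4 and 15.7 CPM, and lard livers 14.9, 14.3, 12.2 and 13.8 CPM. In 11 of 12 restricted livers Lbr was above every control, soy mouse 1159 being the exception. The log2 difference was 0.62 ± 0.14 (SE; edgeR adjusted p = 0.0467). These values rest on 118 to 316 reads per liver library, and leaving out single libraries moved the adjusted p from 0.0306 to 0.304, with the call kept in 3 of 15 removals. Tm7sf2, the other reductase, had a log2 difference of -0.13 ± 0.25.

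The balance of the 2 Insig genes was read per exon length. Insig1 over Insig2 (ratio of the authors' RPKM, reads scaled by exon length and library size) was 0.935 to 2.34 in the 3 control livers, 3.95 to 11.1 in soy, 2.67 to 6.41 in fish and 4.25 to 8.21 in lard livers. All 12 restricted livers were above all control livers in this ratio, which was chosen after the values of Insig2 were seen. Insig1 itself had 171, 193 and 186 CPM in control and 177 to 488 CPM in restricted livers (log2 difference 0.63 ± 0.22, edgeR adjusted p = 0.228). Srebf2 (0.22 ± 0.16) and Scap (-0.15 ± 0.10) did not pass.

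**Figure D1:**
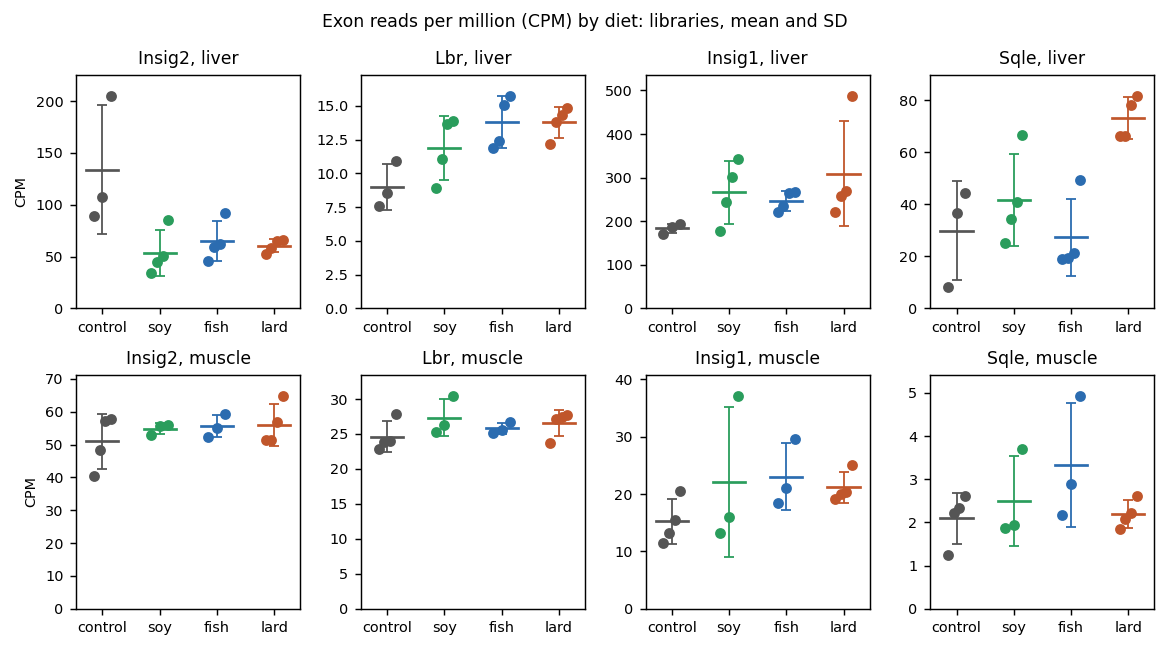
CPM of Insig2, Lbr, Insig1 and Sqle (vertical axis, from 0) by diet in liver (upper row) and muscle (lower row): points are libraries, horizontal lines the group means, bars the SD. In liver the control points of Insig2 lie at 89.0 to 205 CPM and 11 of 12 restricted points lie below them, and the lard points of Sqle (66.3 to 81.8 CPM) lie above all control points.

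Lard livers differed from control in how many of the genes lay on one side. The genes were read in the same livers and many share SREBP2 as a regulator, so they can move together. Here and below, counts out of 30 are therefore not 30 separate observations, and the shares of all genes beside them are no test. In 18 of the 30 genes all 4 lard livers were above all 3 control livers, beside 3.32% of all genes tested. These were Acat2, Hmgcs1, Mvk, Pmvk, Idi1, Fdps, Fdft1, Sqle, Lss, Cyp51, Lbr, Msmo1, Hsd17b7, Sc5d, Dhcr7, Insig1, Tmem97 and Mmab. Of the reads of Acat2 in liver, 52.3% to 62.5% mapped uniquely. Insig2 was the 1 gene with all lard livers below all controls, beside 12.7% of all genes. By the test across all genes 0 of the 30 passed in lard against control, beside 0.508% of all genes. An unadjusted p under 0.05 was reached by 21 of the 30 and by 9.99% of all genes. The median log2 difference was 0.74 (all genes 0.00), and 28 of 30 were above 0. With the DESeq2 Wald test 7 passed (Insig2, Lbr, Hsd17b7, Aacs, Mmab, Lss and Insig1), beside 2.2% of its genes with an adjusted p.

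Of the 6 genes at the start of the pathway 0 passed in lard against control. Their log2 differences were 0.70 to 1.05, with a median of 0.99. Aacs, which makes acetoacetyl-CoA from the ketone body acetoacetate, had 150.5, 106 and 109 CPM in control and 178, 128, 239 and 320 CPM in lard livers. Its difference was 0.93 ± 0.25 (SE; edgeR adjusted p = 0.121), and the groups overlapped. Hmgcs1 had 102, 164 and 118 CPM in control and 195, 233, 271 and 243 CPM in lard livers, without overlap, a difference of 0.96 ± 0.31 (edgeR adjusted p = 0.233). Mvk, Pmvk and Mvd, the kinases and the decarboxylase that turn mevalonate into isopentenyl diphosphate, differed by 1.02 ± 0.38, 1.05 ± 0.40 and 1.02 ± 0.47.

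Of the isoprenoid genes, Idi1, the isomerase of the pathway's building block, differed by 1.11 ± 0.44 and Fdps, the farnesyl diphosphate synthase, by 1.22 ± 0.52. Ggps1, which leads away from sterols to geranylgeranyl diphosphate, differed by 0.25 ± 0.14. Fdps shares reads with near copies, since 68.5% to 74.3% of its reads in liver mapped uniquely.

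Among the 12 squalene and ring genes the lard difference ran from 0.06 to 1.35, with a median of 0.81. Sqle, squalene epoxidase, had 8.43, 44.5 and 36.9 CPM in control and 66.3, 81.8, 78.4 and 66.3 CPM in lard livers, with a difference of 1.35 ± 0.50 (edgeR adjusted p = 0.313). All lard livers were above all controls, and control mouse 1095 was far below its group. Hsd17b7, a ketone reductase in the removal of ring methyl groups, had 58.7, 63.2 and 62.9 CPM in control livers. It had 91.6, 111, 112 and 104 CPM in lard livers, 69.6, 47.0, 84.4 and 40.2 CPM in soy livers and 70.8, 61.2, 62.8 and 84.1 CPM in fish livers. Lard livers were above all 11 others in Hsd17b7, and the difference from control was 0.86 ± 0.19 (SE; edgeR adjusted p = 0.067). Lss, which closes the sterol ring, differed by 1.05 ± 0.30 and Dhcr7, which makes the last reduction of one branch, by 1.01 ± 0.36. Tm7sf2 (0.06 ± 0.29) and the isomerase Ebp (0.26 ± 0.21) were the smallest. Only 39.3% to 55.8% of the reads of Lss in liver mapped uniquely, so its level is uncertain.

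The transport genes differed less, with a median of 0.26 in lard against control. Stard4, a cytosolic sterol carrier, differed by 0.37 ± 0.19, Tmem97, a membrane partner of Npc1, by 0.41 ± 0.23, and the lysosomal exporters Npc1 and Npc2 by 0.07 ± 0.20 and 0.16 ± 0.20. Mmab, a cobalamin enzyme that shares its start region with Mvk, had 17.2, 26.0 and 21.9 CPM in control and 26.8, 32.7, 35.1 and 35.4 CPM in lard livers, a difference of 0.66 ± 0.18 (SE; edgeR adjusted p = 0.124). The ratio of Mvk to Mmab in RPKM was 0.567 to 1.80 across livers and 0.279 to 0.551 across muscles, so the 2 genes did not keep 1 ratio.

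**Figure D2:**
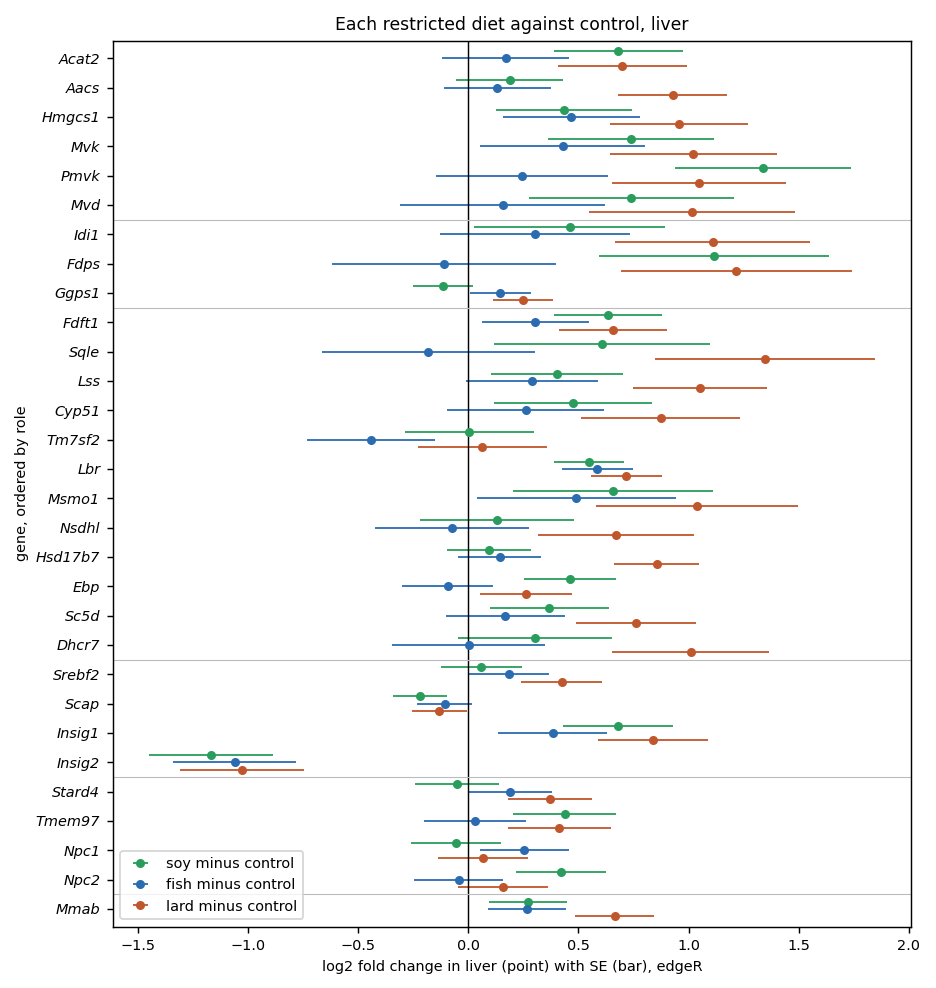
Log2 fold change of each gene in liver (horizontal axis) for soy, fish and lard against control, with SE bars from edgeR; genes are ordered by role from the mevalonate steps to transport. Lard points lie to the right of 0 for 28 of 30 genes with a median of 0.74, fish points have a median of 0.17, and Insig2 lies near -1 in all 3 diets.

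Soy and fish had smaller median differences from control than lard. In soy livers 0 of 30 passed (1.17% of all genes), the median difference was 0.43 and 25 were above 0. An unadjusted p under 0.05 was reached by 8 of 30 genes and 22.3% of all genes, and DESeq2 called 3 (Insig2, Lbr and Pmvk), beside 6.8% of its genes. Without soy livers 1073 and 1159 the median was 0.20, and 0 of 30 passed in edgeR. All soy livers were above all controls in 0 of 30 genes (2.78% of all genes) and below them in Scap and Insig2 (11.3% of all genes). In fish livers 0 of 30 passed (0.383% of all genes), the median was 0.17, 22 were above 0, and 2 had an unadjusted p under 0.05 (8.93% of all genes). DESeq2 called 1, Insig2, beside 1.3% of its genes. All fish livers were above all controls in Lbr, Srebf2 and Insig1 (7.17% of all genes). This count of 3 became 7 without control liver 1120 (9.73% of all genes), 5 without fish liver 1125 (13.5%) and 2 with TMM-scaled CPM (6.2%). These comparisons share the 3 control livers. Control mouse 1095 was the lowest of 15 livers in 16 of the 30 genes and the highest in 2, with a median deviation of -0.62 on the log2 scale from the mean of all livers (all genes 0.14). The other control livers were at 0.00 and -0.23. Without 1095 the median of the 30 genes was 0.58 in lard, 0.18 in soy and 0.03 in fish against control, and 0.23 in the mean of the restricted diets. The soy median was also lower without soy liver 1073 (0.20). The fish median was 0.29 without control liver 1120 and below 0 without fish liver 1125 (-0.03, with 13 of 30 genes above 0), so its direction rested on 1 library.

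When any 1 of the 7 libraries was left out, 18 to 21 genes kept all lard livers above control. The share of all genes was then 4.28% to 9.8%, against 3.32% with every library. With TMM-scaled CPM the count was 18, beside 7.0% of all genes. Both settings were added after the data were seen. In the 4 lard livers 23 to 28 of the 30 genes were above their mean over all livers, with median deviations of 0.22 to 0.40.

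**Figure D3:**
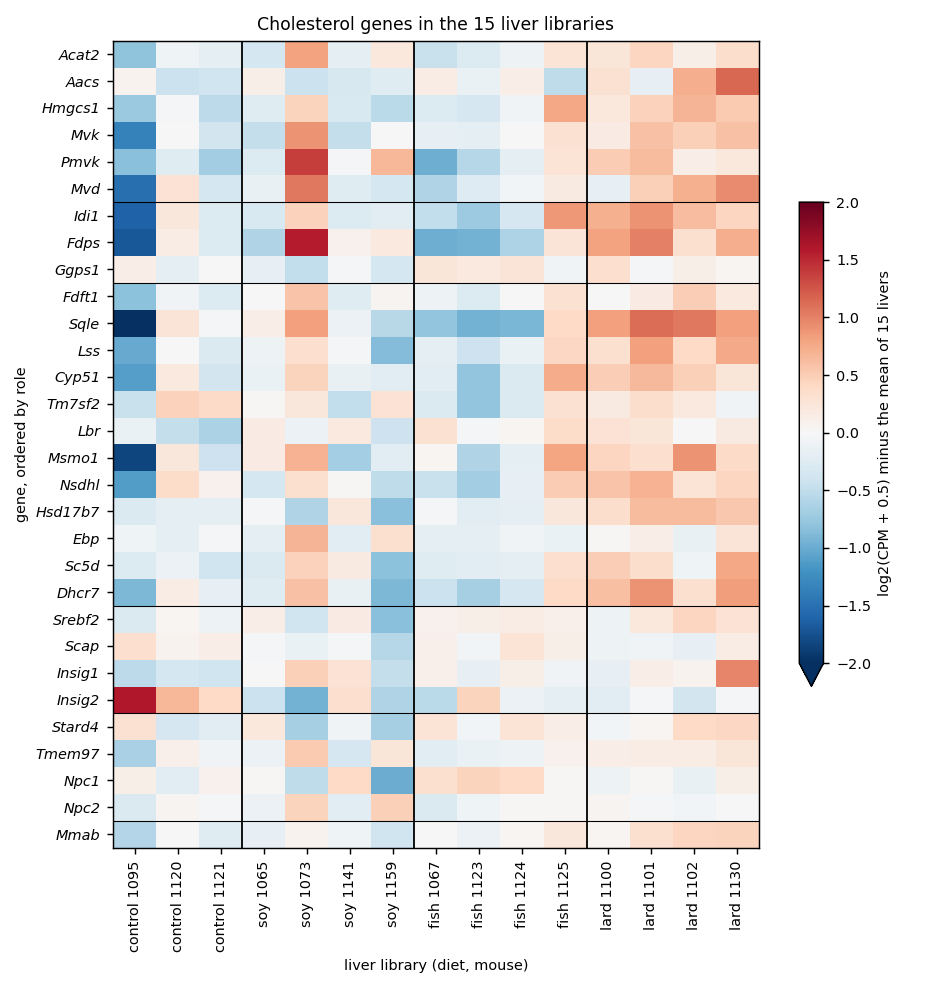
Log2(CPM + 0.5) of each gene (rows, ordered by role) minus its mean over 15 livers, by library (columns, diet and mouse number); red is above and blue below the mean, and the scale ends at 2 and -2. The 4 lard columns are mostly red, soy 1073 and fish 1125 stand out red in their groups, and control 1095 is blue for most genes but red for Insig2.

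The fat sources were then compared within restriction. Fish was below lard in 28 of 30 genes in liver, with a median log2 difference of -0.52 (all genes 0.01). By edgeR 0 of 30 passed (0.203% of all genes), 10 had an unadjusted p under 0.05 (9.98% of all genes), and DESeq2 called 3 (Sqle, Hsd17b7 and Aacs), beside 1.29% of its genes. Sqle had 21.3, 19.1, 19.6 and 49.3 CPM in fish and 66.3 to 81.8 CPM in lard livers, without overlap, a difference of -1.53 ± 0.46 (SE; edgeR adjusted p = 0.243). Fdps had 100.4, 103, 129 and 238 CPM in fish and 349, 399.9, 247 and 329.6 CPM in lard livers, a difference of -1.33 ± 0.48 (edgeR adjusted p = 0.368). Dhcr7 differed by -1.01 ± 0.32 and Hsd17b7 by -0.71 ± 0.18. For Insig2, Scap and Npc1 the differences were -0.03 ± 0.26, 0.02 ± 0.12 and 0.19 ± 0.19. All fish livers were below all lard livers in Fdps, Sqle, Hsd17b7 and Tmem97, 4 of 30 beside 1.49% of all genes. Fish mouse 1125 was above the mean of all livers in 25 of 30 genes, against 4 to 11 for the other fish livers. Without it the count was 17 of 30 (2.56% of all genes). The count was 8 without lard liver 1100 (2.29%) and 7 without lard liver 1102 (2.95%).

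Lard was above soy in 26 of 30 genes in liver (median 0.32, all genes 0.00), and 0 of 30 passed in edgeR, as did 0 of all genes. An unadjusted p under 0.05 was reached by 8 of 30 and by 17.3% of all genes, and DESeq2 called Aacs, beside 9.27% of the 1629 genes to which it gave an adjusted p there. All lard livers were above all soy livers in Ggps1 and Hsd17b7 (1.96% of all genes). This became 13 genes without soy liver 1073 (2.94% of all genes) and 6 without lard liver 1100 (3.85%). It became 3 or 4 without soy livers 1065 or 1141 or lard livers 1101, 1102 or 1130 (2.91% to 6.19%). Liver 1073 was the highest of 15 in 8 genes, among them Pmvk with 141 CPM and Fdps with 589.6 CPM. Fish was below soy in 21 of 30 genes, and 0 of 30 passed (0.0938% of all genes). An unadjusted p under 0.05 was reached by 4 of 30 and by 23.1% of all genes. The median difference was -0.20 (all genes 0.02). This median was -0.00011 without soy liver 1073, -0.07 without fish liver 1123, -0.13 without fish liver 1067, -0.48 without fish liver 1125 and -0.05 without soy livers 1073 and 1159 together. Pmvk differed by -1.09 ± 0.36 and was called by DESeq2, beside 9.24% of its genes.

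Other genes of lipid and sterol handling were counted from lists made with earlier results of these data known. In lard against control in liver 0 of 8 efflux and LXR genes, 0 of 5 esterification genes, 0 of 10 genes of SREBP cleavage and sterol-regulated turnover, 0 of 13 genes of other isoprenoid use, 0 of 13 lipogenesis genes and 0 of 5 ketone body genes passed. Of all genes 0.508% passed there. The lipogenesis list, of fatty acid synthesis under SREBP1 and ChREBP, had a median of 0.90 in lard against control. In fish against lard 4 of those 13 fell, beside 0.133% of all genes, with a median of -1.44. The other lists had 0 passing and medians from -0.10 to 0.18.

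Muscle had no member past the threshold in any of the 7 diet comparisons. For the mean of the restricted diets against control this was 0 of 30 beside 3.49% of all genes, with 11 of 30 at an unadjusted p under 0.05 (26.4% of all genes), and the median difference was 0.14 (all genes -0.02). DESeq2 called Fdft1, Hsd17b7, Sc5d and Lss, 4 of 30 beside 9.68% of its genes. Soy, fish and lard against control had 0 of 30 passing (0%, 0.00763% and 0% of all genes). An unadjusted p under 0.05 was reached by 7, 8 and 5 of 30, beside 17.4%, 18.4% and 17.3% of all genes. DESeq2 called Fdft1 in lard (2.53% of its genes) and 0 in soy and fish (2% and 3.08%). Among the fat sources 0 of 30 passed in edgeR and in DESeq2. An unadjusted p under 0.05 was reached by 0, 0 and 1 for fish against soy, lard against soy and fish against lard. Of all genes it was reached by 2.2%, 3.05% and 4.13%. DESeq2 called 0%, 0% and 0.107% of its genes there.

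The 5 genes of smallest p in muscle were all enzymes of the pathway. Most of the genes followed are such enzymes, so this alone does not set the 5 apart. The difference of Fdps was negative and those of the others were positive. Fdft1, squalene synthase, had 71.7, 65.7, 86.6 and 64.6 CPM in control and 88.2, 86.9, 96.4 and 86.6 CPM in lard muscles, a difference of 0.37 ± 0.10 (SE; edgeR adjusted p = 0.158). All lard muscles were narrowly above all control muscles in Fdft1 (1.89% of all genes). Lss had 1.69, 4.49, 3.11 and 5.55 CPM in control muscles and 5.31 to 7.80 CPM in the 10 restricted muscles, with slight overlap. Its difference was 0.81 ± 0.23 (edgeR adjusted p = 0.0628). This rests on 26 to 189 reads per muscle library, of which only 30.8% to 52.2% mapped uniquely. Sc5d, a ring desaturase, had 10.1, 17.2, 11.5 and 18.1 CPM in control and 17.4 to 27.0 CPM in restricted muscles, with slight overlap and a difference of 0.50 ± 0.15 (edgeR adjusted p = 0.0675). Hsd17b7 had 4.49, 9.52, 5.66 and 12.8 CPM in control and 9.38, 22.1 and 22.3 CPM in soy muscles, a difference of 1.09 ± 0.32 (edgeR adjusted p = 0.185). Fdps had 32.0, 19.7, 25.5 and 19.9 CPM in control and 15.5 to 20.7 CPM in restricted muscles, a difference of -0.41 ± 0.14 (edgeR adjusted p = 0.0955). In Lss, Sc5d and Hsd17b7 the lowest control muscles were those of mice 1071 and 1120, and in Fdps they were the highest. These 2 muscles also held 1987 and 7675 CPM of 7 erythroid markers and 266 and 1136 CPM of 7 neutrophil markers, against 219 to 1082 and 0.183 to 2.54 CPM in all other muscles. The part of this in the result was not tested.

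All fish muscles were above all control muscles in Ggps1, Fdft1, Lss, Sc5d and Mmab (6.92% of all genes). These 5 became 7 genes without control muscle 1071 (8.0% of all genes), 6 without control muscle 1095 (9.67%) and 7 without control muscle 1120 (10.7%). With TMM-scaled CPM they became 3 (5.87%). The count of 11 without fish muscle 1123 is given without its share of all genes, so it says nothing particular to these genes. Leaving out a library can only keep or raise such a count, for all genes as well. Soy muscle 1073 was the highest of 14 in 13 genes, and fish muscle 1124 in 9. Muscle 1073 also had the highest sum of 6 adipocyte markers, 1027 CPM against 59.9 to 539 CPM in the others, and 42.3 CPM of Aacs against 3.44 to 20.5 CPM. The part of fat tissue in these values was not tested.

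The tissues differed in Insig2 in the fit without a mouse term. In muscle it had 40.4, 57.8, 48.4 and 57.2 CPM in control and 51.3 to 64.8 CPM in restricted libraries, a log2 difference of 0.12 that did not pass. The difference between tissues in restricted diets minus control was -1.20 ± 0.27 (SE; edgeR adjusted p = 0.0388), and it was 1 of 30 beside 0.657% of 14150 genes. With the mouse as a block, for the 13 mice that gave both tissues, it was -1.10 (edgeR adjusted p = 0.118) and did not pass. Leaving out single libraries kept the call in 14 of 29 removals, with values from -1.42 to -0.83 and edgeR adjusted p from 0.0125 to 0.160. It was lost without control livers 1095 or 1120, control muscles 1071 or 1120, soy liver 1159, fish liver 1124, lard livers 1100 or 1102, soy muscles 1065 or 1141, fish muscles 1123 or 1124, and lard muscles 1100, 1102 or 1130. It was also lost without control muscles 1071 and 1120 together (-1.01, edgeR adjusted p = 0.457) and without soy livers 1073 and 1159 together (-1.12, edgeR adjusted p = 0.0549). DESeq2 called 3 genes (Insig2, Lbr and Pmvk), beside 3.14% of its genes. For fish against lard 0 of 30 genes differed between tissues (0.0424% of all genes), with 5 at an unadjusted p under 0.05 (7.45% of all genes). Among these 5 was Sqle at -2.01 ± 0.63 (edgeR adjusted p = 0.381). DESeq2 also called 0, beside 0.368% of its genes.

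Over all diets, 27 of the 30 genes were higher in liver and 3 higher in muscle, beside 42.7% and 43.9% of all genes. All 30 passed in edgeR, in a fit without a mouse term. The median log2 difference, liver minus muscle, was 3.26 (all genes -0.02). Stard4 (5.21 ± 0.13), Tmem97 (5.18 ± 0.14) and Msmo1 (4.70 ± 0.23), a methyl oxidase, differed most. Ggps1 (-0.63 ± 0.09), Lbr (-1.07 ± 0.06) and Mmab (-0.38 ± 0.07) were the ones higher in muscle. Fdft1 (0.62 ± 0.10) and Insig2 (0.47 ± 0.12) were the closest among those higher in liver.

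Per exon length, the order also changed between tissues. In liver Fdps (174 ± 105 RPKM, SD, n = 15) and Sc5d (155 ± 45.9) led, with neighbours within their spread, and Ggps1 (2.73 ± 0.436) and Lbr (3.19 ± 0.637) were lowest. In muscle Fdft1 led (27.8 ± 3.55 RPKM, SD, n = 14), followed by Insig2 (16.9 ± 1.77), Fdps (15.3 ± 3.08) and Npc2 (15.0 ± 3.92), the latter 3 overlapping. Sqle (0.842 ± 0.305) and Stard4 (0.770 ± 0.201) were lowest in muscle and overlapped. The 2 sterol reductases changed places. Tm7sf2 over Lbr in RPKM was 6.34 to 22.5 in the 15 livers and 0.188 to 0.327 in the 14 muscles. Insig1 over Insig2 was 0.935 to 11.1 in liver and 0.225 to 0.784 in muscle, so all muscles had less Insig1 than Insig2 per exon length and 14 of 15 livers had more.

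**Figure D4:**
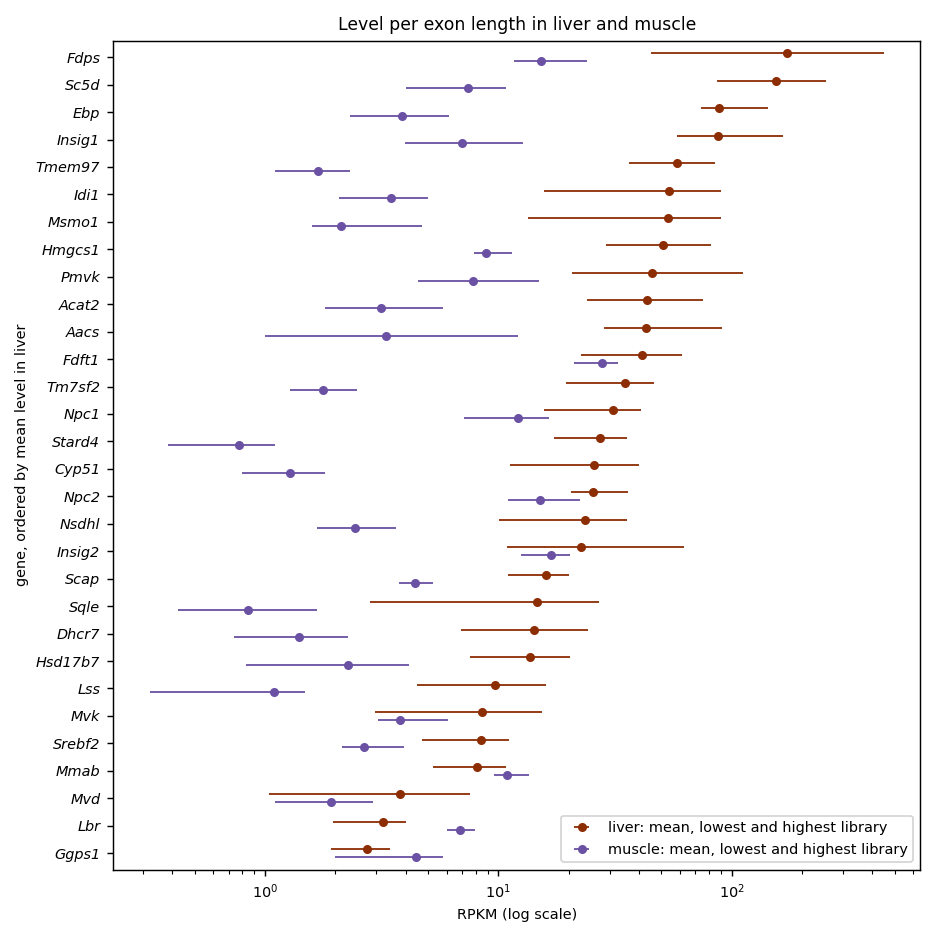
RPKM (log axis) of the 30 genes in liver and muscle, with points at the mean over 15 or 14 libraries and bars from the lowest to the highest library, ordered by level in liver. Ggps1, Lbr and Mmab are the 3 genes with the muscle point to the right of the liver point.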

How the data were processed

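Per the labels' protocols, the authors extracted RNA of liver and hindlimb muscle with Trizol and made TruSeq libraries. The series text states that control liver 1071 and fish muscle 1125 were discarded for their clustering and lower RNA integrity. The submitters' processing notes name FastQC and GRCm38. The sources used here name no aligner, counter, annotation or strand setting. The 8 tables deposited by the authors hold, per the file headers, read counts of each gene in each library (total exon, unique exon and whole gene) together with RPKM. Values of a library repeated between tables differed in 0 of 116 comparisons. Identifiers were matched to GENCODE M21 symbols for 36345 of 38124 genes.

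Total exon counts went into edgeR 4.0.16 (R 4.3.3): filterByExpr at a minimum count of 10, TMM, and the quasi-likelihood test with the 4 diets of a tissue in one fit, or all 8 groups for tissue differences. This tested 12788 genes in liver, 13104 in muscle and 14150 in both, with a biological coefficient of variation of 0.212, 0.235 and 0.226. SE is the size of the log2 fold change divided by the square root of F. CPM are exon reads per 1e+06 exon reads of the library, and levels between genes use the deposited RPKM. Groups without overlap were counted on CPM. Depth was 11315231 to 27106865 exon reads (median 15316165). All pairs of libraries of a group differed by more than sampling noise (chi-square over its degrees of freedom 10.95 or more). The fit was tested on simulated data.

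Every library value is given for genes past the threshold in a diet comparison or interaction and, where under 5 passed in a tissue, for the 5 of smallest p. The 30 genes and all lists were chosen with earlier results of these data known, and Sqle, Hmgcs1, Insig1 and Fdps in liver are given by library after their values were seen. Alternatives were DESeq2 1.42.0 size factors and its Wald test, no filter, unique reads, a fit of the compared diets only, the library number or the mouse as a replicate block, and leaving out libraries. The mouse number in the titles pairs liver and muscle. Deviations of the 13 pairs correlated at -0.078 to 0.131 (median 0.060) across genes.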

Additional observations from a re-analysis of the deposited data

Results flagged for a closer look

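In each tissue and diet with 4 libraries, the highest and lowest CPM were set against the others by Dixon's criterion. Of 150 groups tested 11 had a library apart, and chance gives about 1 in 20. Soy liver 1073 was apart in Mvd (14.1 CPM, others 4.98 to 5.82), Idi1 (225 CPM, others 132 to 142) and Cyp51 (141 CPM, others 89.3 to 94.5). Fish liver 1125 was apart in Idi1 (299.98 CPM, others 98.2 to 129), Sqle (49.3 CPM, others 19.1 to 21.3) and Sc5d (474 CPM, others 318 to 333). Lard liver 1102 had 233 CPM of Msmo1 (others 157 to 169). In muscle, lard 1102 had 96.4 CPM of Fdft1 (others 86.6 to 88.2), lard 1130 had 5.31 CPM of Lss (others 6.73 to 6.97), lard 1101 had 23.7 CPM of Lbr (others 27.2 to 27.8), and control 1095 had 31.2 CPM of Mmab (others 34.9 to 35.3).

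In the fit without a mouse term, the difference of the restricted diets from control in Insig2 was not the same in liver and muscle. The interaction was -1.20 on the log2 scale (edgeR adjusted p = 0.0388), and it did not pass with the mouse as a block.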

How the results depend on the processing

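The 17 log2 fold changes of single genes followed through the settings changed sign in 0 of 378 values. The median over the 30 genes changed sign in 10 of 407, once in fish against control in liver (0.17, -0.03 without fish liver 1125) and otherwise among the fat sources in muscle, where it lay within 0.05 of 0 and ran from -0.05 to 0.10, -0.11 to 0.03 and -0.02 to 0.14 for fish against soy, lard against soy and fish against lard. With DESeq2's Wald test the genes called numbered 3 in soy, 1 in fish and 7 in lard against control, 1 in fish against soy, 1 in lard against soy and 3 in fish against lard in liver, 1 in lard against control and 4 in restricted against control in muscle, and 3 in the tissue difference of restriction. Without a filter 1 passed in restricted against control in liver, Insig2 (Lbr adjusted p = 0.0599). Fitting only the compared diets called 4 in lard against control and 1 in fish against lard. Leaving out soy livers 1073 and 1159 called 2 and 1 there. For these refits and those below, the share of all genes called is not given. Such counts therefore say nothing particular to the 30 genes. Insig2's tissue difference was lost without those livers (0 called, adjusted p = 0.0549), without control muscles 1071 and 1120 (0 called), and with the mouse as a replicate block (0 called, -1.10, adjusted p = 0.118). With the library number as a replicate block 0 passed in restricted against control in liver (Insig2 -0.99, adjusted p = 0.097; Lbr 0.57, adjusted p = 0.144). Deviations of same-numbered libraries correlated at -0.188 to 0.176 (median -0.014) across genes in liver. Whether the number marks a batch was not tested. No block changed any other call. Leaving out 1 library at a time, the genes called ran from 0 to 2 in restricted and in soy against control, 0 to 1 in lard against control and against soy, and 0 to 4 in fish against soy in liver, from 0 to 4 in restricted against control in muscle (4 without control 1095 or control 1121), and from 0 to 2 in the tissue difference of restriction. The median over the 30 genes stayed between 0.58 and 0.88 in lard against control, and between -0.74 and -0.38 in fish against lard. The genes with fish muscles all above controls numbered 5 (6.92% of all genes) and 3 with TMM-scaled CPM (5.87%). With 1 library left out they numbered 5 to 11, a range given without its shares of all genes. Genes with few reads, such as Sqle in muscle (18 to 62 reads per library), limit what could be detected. The cause of these changes was not tested.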
